A study of Mus musculus with 6 samples.

Results

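Huntingtin and the CREB transcription machinery act upstream of PGC-1alpha, the transcriptional coactivator of mitochondrial and oxidative genes that is encoded by Ppargc1a. Expression of 10 genes of this axis was examined in the striatum of mice without PGC-1alpha: Htt, Hap1, Hip1, Creb1, Crem, Crebbp, Ep300, Taf4, Sp1 and Rest. They were chosen by name, with earlier results of these data known, out of 18193 genes that the array annotation names singly. Every probe set annotated to 1 of them alone was taken, 34 in all with 1 to 6 per gene. The question was whether loss of PGC-1alpha changes the transcripts of its own upstream regulators.

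As background, CREB binds cyclic AMP response elements and, once phosphorylated, recruits the histone acetyltransferases CBP and p300. It also contacts TAF4, a subunit of the general factor TFIID, which links activators to the polymerase machinery. The Ppargc1a gene is a known CREB target. In Huntington's disease the expanded huntingtin protein binds several of these factors, and interference with CREB and TAF4 at the PGC-1alpha promoter has been described in striatal neurons. Normal huntingtin is also known to hold the neuronal gene repressor REST in the cytoplasm.

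The arrays held striatal RNA of 3 female PGC-1a null (PGC-1a-/-, here KO) mice and 3 female wild-type (PGC-1a+/+, WT) littermates, all aged 6 months and bred from heterozygous founders, with 1 Affymetrix array per mouse. No huntingtin mutation is named for any mouse, and the sources used here do not name the altered part of Ppargc1a. The label of KO 3 names cytoplasmic RNA where the other 5 labels and the design text name total RNA, so values without KO 3 are given where they matter. Values are MAS5 signals, differences are KO minus WT of log2(signal + 16), and a probe set is called at an adjusted p under 0.05 in limma. Correlations of log2 signals between arrays ran from 0.972 to 0.979. Of the striatal medium spiny neuron markers, all 15 found on the array passed the filter on low signals and 0 were called. Among the other marker lists, 1 gene was called, the choroid plexus transcript Ttr, which read 3660, 2597 and 3062 in KO and 1264, 1543 and 2193 in WT (difference 0.91, adjusted p = 0.035). In whole tissue, fewer cells of a type and less RNA per cell cannot be told apart.

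The targeted gene was low in the mice labelled KO. Its leading Ppargc1a probe set read 89.5, 87.9 and 68.4 in KO and 397.0, 305.0 and 370.3 in WT (difference -1.93, SE 0.14, limma adjusted p = 3.0e-05). The groups did not overlap in any of the 5 Ppargc1a probe sets, whose differences ran from -1.93 to -1.12, all called.

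No upstream regulator was called in either direction. Of the 34 probe sets, 26 passed the filter (mean signal above about 26.8), with at least 1 for each of the 10 genes, and limma called 0 of them at an adjusted p under 0.05. Over all 27022 probe sets tested, 0.47% were called, so a count of 0 among 26 is near the background. The lowest adjusted p of any member was 0.24. At an unadjusted p under 0.05 there were 4 of the 26, all higher in KO. The whole array had 9.17% at that level, and 4.11% in that direction. A difference above 0 was seen in 16 of the 26 and in 48.9% of all probe sets tested. In 6 of the 26 the groups did not overlap (5 with KO above WT, 1 below), against 14.4% of all probe sets tested. The share with KO above WT was 6.52% over the array. Probe sets of a gene are not independent, and Htt alone held 2 of the 6. Counted once per gene by brightest probe set, 5 of the 10 genes were above 0, against 48.2% of all named genes. Their median difference was 0.020, and 1 of the 10 (10%) had an unadjusted p under 0.05 in limma, against 9.73%. The count of calls was also 0 without KO 3. The 95% confidence intervals show what the arrays could resolve: all 26 lay above a fall of 1 on the log2(signal + 16) scale, and 25 lay below a rise of 1. The exception was the dimmest Crebbp probe set, whose interval reached 1.23. Because 16 is added to each signal, a step of 1 is more than a doubling or halving of signal, above all in dim probe sets. For some dim ones, such as Htt 1446337_at with an interval down to -0.62, a halving of signal was not excluded.

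**Figure D1:**
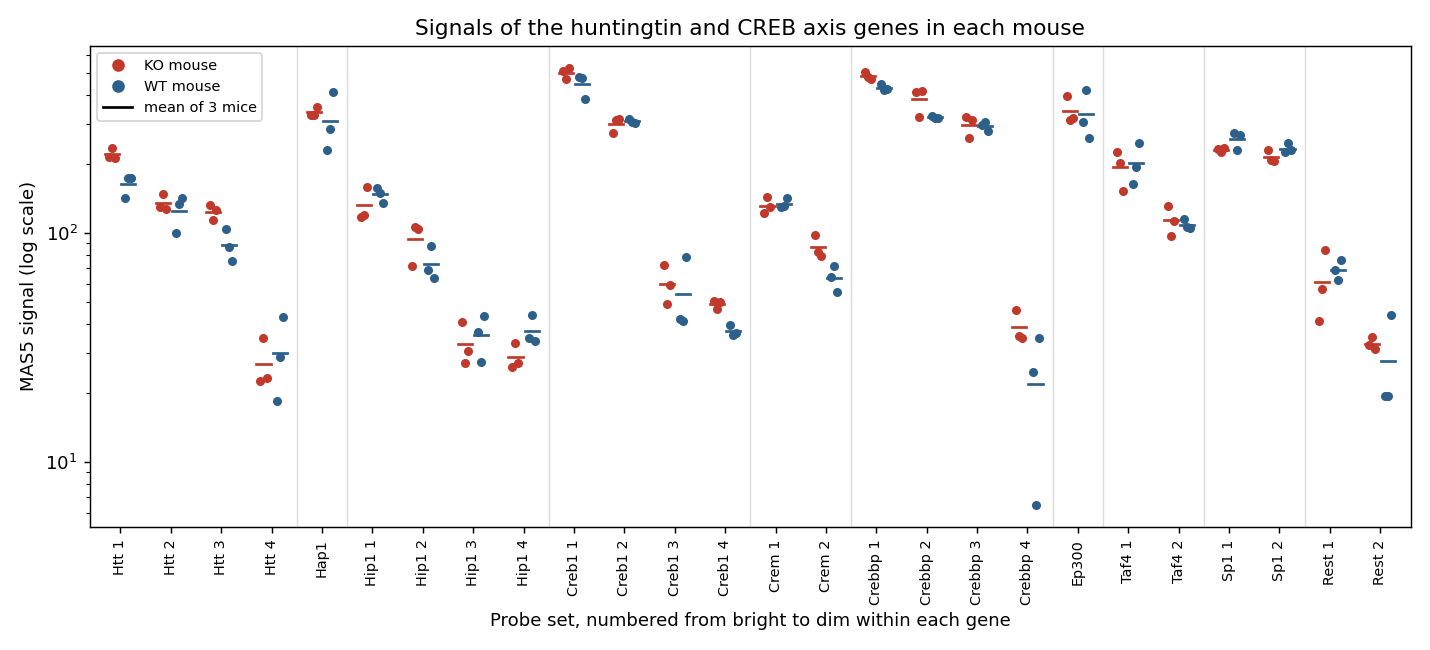
Signals (MAS5, log axis) of the 26 member probe sets tested, in 3 KO mice (red) and 3 WT mice (blue), with bars at the mean of 3 mice; probe sets are numbered from bright to dim within each gene. Htt 1 and Htt 3 show KO above WT without overlap, while most other probe sets have overlapping groups.

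Htt encodes huntingtin, the large scaffold protein whose expanded form causes Huntington's disease. Its brightest probe set (1435539_at) read 214.6, 235.0 and 212.4 in the KO mice and 141.6, 173.9 and 173.5 in the WT mice. Every KO mouse was above every WT mouse, and WT 1 was the lowest. The difference was 0.41 (SE 0.12, 95% interval 0.15 to 0.66), or 1.33-fold, with an unadjusted p of 0.0046 that became 0.24 after adjustment over all probe sets in limma (exact permutation p = 0.1, the smallest that 3 against 3 allows). Without KO 3 the difference was 0.43 (adjusted p = 0.37).

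A second Htt probe set (1425969_a_at) showed a difference of like size. It read 132.0, 113.4 and 125.8 in KO and 103.7, 87.0 and 75.5 in WT, again without overlap (difference 0.42, interval 0.10 to 0.74, adjusted p = 0.36). The remaining pair of Htt probe sets did not separate the genotypes. One (1456667_at) read 129.2, 147.3 and 127.5 in KO and 99.5, 133.8 and 141.9 in WT (difference 0.11, interval -0.21 to 0.42). The other (1446337_at) was dim, at 26.9 ± 6.9 in KO against 30.0 ± 12 in WT (SD, n = 3; difference -0.077). The mean of the 4 Htt probe sets differed by 0.21 (adjusted p = 0.59). The Htt probe sets thus gave differences from -0.077 to 0.42 with none past the threshold, and whether the probe sets differ from each other was not tested.

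Htt and Ppargc1a both lie on mouse chromosome 5, as do Hip1 and Rest. In a comparison chosen after the Htt values were seen, 52 named genes lying between Htt and Ppargc1a in the assembly order were tested, and limma called 0 of them. Of all 12323 named genes tested, 18 were called higher and 37 lower. One of the 52 had an unadjusted p under 0.05 (1.92%), where all named genes tested had 9.73%. A difference above 0 was seen in 31 of the 52, against 48.2% of all named genes tested. The median difference of the 52 was 0.052, against -0.0069 for all named genes and -0.00037 for those on chromosome 5. The part of chromosome position in the Htt values was not tested.

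The upstream sequences of Htt and Ppargc1a are shown because Htt had the lowest p among the regulators and Ppargc1a is the gene they act on. Both are the 250 bases before the annotated start, 5′ to 3′ on the gene's strand, from RefSeq on build GRCm38.p6, with capitals marking the cyclic AMP response element TGACGTCA or its half-site TGACG, read on either strand. Htt, chr5:34761490-34761739, plus strand, and Ppargc1a, chr5:51567726-51567975, minus strand, read as follows.
Htt: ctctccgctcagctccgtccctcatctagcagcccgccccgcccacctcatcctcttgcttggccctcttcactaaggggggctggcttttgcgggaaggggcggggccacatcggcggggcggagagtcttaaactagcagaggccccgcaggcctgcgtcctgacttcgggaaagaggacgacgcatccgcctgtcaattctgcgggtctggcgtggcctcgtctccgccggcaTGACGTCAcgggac
Ppargc1a: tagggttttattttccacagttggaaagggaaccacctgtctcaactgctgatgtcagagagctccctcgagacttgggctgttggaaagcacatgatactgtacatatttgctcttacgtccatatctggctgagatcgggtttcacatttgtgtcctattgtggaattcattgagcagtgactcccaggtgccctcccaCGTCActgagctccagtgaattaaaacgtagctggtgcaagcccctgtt
The Htt window held 1 full TGACGTCA, whose first base lay at -14 from the start, and the Ppargc1a window held a single half-site at -49 and no full element. This is 1 annotated start of Ppargc1a, a gene known to be transcribed from several starts, and its other promoters, the proximal one among them, were not searched. Searched on both strands over 300 bases (250 before to 50 after the start), the full element was in 1 of the 8 members matched, Htt, and in 1.79% of all 32851 promoter windows. The half-site, which the full element also contains, was in 3 of the 8 members (Htt, Hap1 and Sp1) and in 20.8% of all windows. The GC box GGGCGG, the core of Sp1 sites, was in 7 of the 8, all but Hap1, and in 35.7% of all windows. Crem and Rest were not searched. Members were counted by gene, with a match in any window enough, and Hap1 and Hip1 had more than 1 window. The percentages count windows, 32851 for 27025 genes, so the units differ. These are letter matches and not binding measurements.

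Hap1 and Hip1 encode huntingtin-binding proteins, the first an adaptor for transport along microtubules and the second an adaptor of clathrin-coated vesicles. The only Hap1 probe set read 328.1, 328.4 and 355.1 in KO and 231.3, 283.7 and 411.9 in WT. The WT mice spread on both sides of the KO mice, and the difference of 0.16 (interval -0.19 to 0.50, adjusted p = 0.82) was within that spread. The same 3 WT mice also differed in the summed signal of 16 markers of hypothalamus, septum and thalamus, at 3118, 1332 and 2169 against 2773, 3131 and 2614 in KO, in another order from Hap1. The part of these markers in the Hap1 values was not tested.

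The Hip1 probe sets did not share a direction. The brightest (1434557_at) read 117.2, 119.6 and 158.8 in KO and 157.4, 149.6 and 135.4 in WT (difference -0.15, interval -0.46 to 0.15; -0.084 without KO 1 and -0.28 without KO 3). The next (1424755_at) read 72.0, 106.4 and 104.3 in KO and 69.2, 87.6 and 63.7 in WT (difference 0.29, interval -0.093 to 0.68; 0.45 without KO 1). A dim Hip1 probe set (1424756_at) was the only member tested with every KO mouse below every WT mouse, at 25.9, 33.0 and 27.1 against 34.6, 43.8 and 33.6 (difference -0.25, adjusted p = 0.76). The fourth differed by -0.089.

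Creb1 encodes CREB itself. Its brightest probe set (1452901_at) read 508.2, 470.4 and 526.0 in KO and 481.6, 473.3 and 383.9 in WT. The groups overlapped and WT 3 was the low value (difference 0.17, interval -0.052 to 0.39, adjusted p = 0.68), and without it the difference was 0.067. The second Creb1 probe set (1428755_at) differed little, at 299 ± 23 in KO against 308 ± 5.9 in WT (SD, n = 3; difference -0.042, interval -0.25 to 0.17). Its sign turned with each array centred on its median (0.0022). A dimmer one (1452529_a_at) read 50.4, 46.6 and 50.0 in KO and 39.8, 35.7 and 36.4 in WT, without overlap (difference 0.29, interval -0.10 to 0.67, adjusted p = 0.69). The fourth tested (1423402_at) differed by 0.15, with 0.024 without WT 2, 0.036 without KO 1 or WT 1, 0.26 without KO 2 and 0.39 without WT 3.

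Crem encodes CREM, a CREB relative whose isoforms include activators and the inducible repressor ICER. The brighter Crem probe set (1449037_at) read 132 ± 11 in KO against 134 ± 6.9 in WT (SD, n = 3; difference -0.026, interval -0.30 to 0.24). Its sign turned with each array centred on its median (0.018). The other Crem probe set tested (1418322_at) read 98.4, 82.8 and 79.1 in KO and 64.3, 71.4 and 55.3 in WT. All 3 KO mice were above all 3 WT mice (difference 0.37, interval 0.019 to 0.72, unadjusted p = 0.040 and adjusted p = 0.50 in limma). Without KO 3 the difference was 0.42 (adjusted p = 0.56). Which Crem isoforms each probe set reads was not determined.

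Crebbp and Ep300 encode CBP and p300, the acetyltransferases that phosphorylated CREB recruits. All 4 Crebbp probe sets had a difference above 0, from 0.0099 to 0.60. The brightest (1435224_at) read 504.2, 480.6 and 468.8 in KO and 447.1, 420.9 and 424.5 in WT, without overlap (difference 0.16, interval -0.017 to 0.34, adjusted p = 0.60). The next Crebbp probe set (1436983_at) read 414.0, 321.1 and 418.4 in KO and 322.8, 316.9 and 318.6 in WT. Here KO 2 lay among the tightly grouped WT mice (difference 0.25, interval 0.0084 to 0.48, unadjusted p = 0.044 and adjusted p = 0.51 in limma), and without KO 3 the difference was 0.18. The third Crebbp probe set differed little, at 296 ± 33 in KO against 293 ± 14 in WT (SD, n = 3; interval -0.22 to 0.24), and its sign turned without KO 1, KO 3 or WT 3. The dimmest (1459804_at) read 46.1, 35.6 and 34.7 in KO and 24.6, 6.5 and 34.8 in WT (difference 0.60, interval -0.022 to 1.23, adjusted p = 0.56). This largest member difference came with a single WT mouse at 6.5, and without WT 2 it was 0.26. The only Ep300 probe set read 394.5, 311.4 and 316.5 in KO and 305.6, 420.6 and 260.8 in WT (difference 0.067, interval -0.26 to 0.40). The groups overlapped widely, with the highest and the lowest value both in WT.

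Taf4 encodes the TFIID subunit that CREB contacts. Its brighter probe set (1452438_s_at) read 226.3, 202.1 and 152.3 in KO and 163.5, 193.7 and 246.2 in WT (difference -0.050, interval -0.40 to 0.30). The second Taf4 probe set read 114 ± 17 in KO against 109 ± 5.1 in WT (SD, n = 3; difference 0.046, interval -0.26 to 0.35). Sp1 encodes the zinc-finger factor of GC boxes, another known partner of TFIID and of huntingtin. Both Sp1 probe sets tested had slightly lower means in KO. One (1454852_at) read 231.6, 225.8 and 234.3 in KO and 272.5, 229.9 and 268.6 in WT (difference -0.14, interval -0.37 to 0.084; -0.22 without WT 2). The other (1418180_at) read 230.5, 208.8 and 205.6 in KO and 224.8, 246.3 and 229.7 in WT (difference -0.11, interval -0.34 to 0.11, adjusted p = 0.80). Groups overlapped in both.

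Rest, the repressor of neuronal genes, was dim on this array. The brightest Rest probe set (1425565_at) read 41.3, 56.9 and 84.4 in KO and 68.7, 62.1 and 76.1 in WT (difference -0.18, interval -0.63 to 0.27). A second (1428227_at) read 32.4, 35.1 and 31.1 in KO and 19.5, 19.5 and 43.6 in WT (difference 0.21, interval -0.32 to 0.74), with 0.086 without WT 1 or WT 2 and 0.46 without WT 3. The KO mice held both the lowest and the highest value of the first and lay within the WT range of the second. Of the 8 member probe sets below the filter, 2 each belonged to Rest, Creb1 and Crem and 1 each to Hip1 and Sp1. Their group means did not exceed 32.0, the groups overlapped in all 8, and 0 were called when no filter was applied (limma, lowest adjusted p = 0.64; 1 of the 8, from Rest, had an unadjusted p under 0.05).

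**Figure D2:**
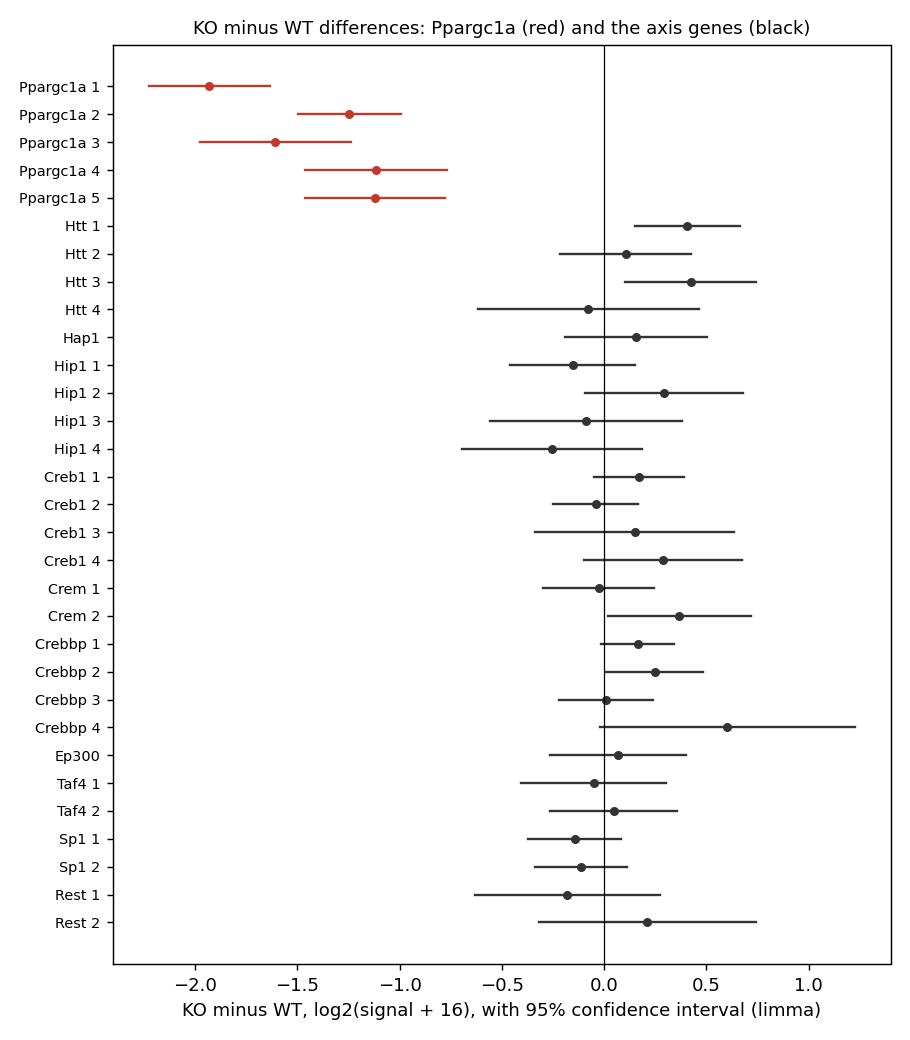
KO minus WT on the log2(signal + 16) scale with 95% confidence intervals from limma, for 5 probe sets of Ppargc1a (red) and the 26 member probe sets tested (black), numbered from bright to dim within each gene. The Ppargc1a intervals lie wholly below 0, and 4 member intervals lie wholly above 0 before adjustment (1st and 3rd of Htt, 2nd of Crem and of Crebbp).

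By its profile over the 6 arrays, the brightest Htt probe set was most like those of Sowaha (Pearson r = 0.988), Spast (0.988) and Heph (0.985) among 12322 other named genes. The brightest Creb1 probe set was most like those of Kansl3 (0.997), Pacsin1 (0.993) and Tmem141 (0.990). With 6 arrays from 2 genotypes, these correlations hold the genotype difference and the scaling of each array as well as the mouse-to-mouse variation.

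Other genes of the pathway were read from 9 lists of 240 genes, 208 of them tested, each by its brightest probe set. The lists were chosen with earlier results of these data known, so their shares beside those of all genes are a description only. In limma 0 of the 208 were called. Before adjustment, p was under 0.05 for 22 of them, or 10.6%, close to the 9.73% of all genes tested. Of all 12323 named genes, 18 were called higher and 37 lower. The lists cover the steps from cyclic AMP to CREB, the factors CREB and huntingtin bind, and genes that CREB and REST control.

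Cyclic AMP reaches CREB through protein kinase A, and calcium through CaM kinases and the MAP kinase cascade. In the list of CREB kinases and phosphatases, 21 of 23 genes had a difference above 0 with a median of 0.071, where 48.2% of all genes tested did and the median was -0.0069. Without WT 1 the list median was 0.043 with 18 of 23 above 0, and without WT 2 it was 0.11. Mouse by mouse against the WT mean, it was 0.063, 0.080 and 0.061 for the KO animals and -0.028, 0.067 and -0.039 for the WT animals, so WT 2 lay within the KO range. At an unadjusted p under 0.05 there were 2, or 8.7% against 9.73% of all genes. Camk4, the nuclear CaM kinase that phosphorylates CREB, read 2140, 2257 and 2066 in KO and 2068, 1832 and 1462 in WT (difference 0.28, SE 0.11, adjusted p = 0.41; 0.14 without WT 3). Its other 3 probe sets gave 0.025 to 0.34. In 1441974_at (0.34, limma adjusted p = 0.32) and 1421941_at (0.30, adjusted p = 0.57) all KO mice were above all WT mice. Rps6ka5, the CREB kinase MSK1, differed by 0.31 (adjusted p = 0.42; 0.18 without WT 1), and its other probe sets by 0.17 and -0.073. Groups overlapped for both genes by brightest probe set. For cyclic AMP production and breakdown, 15 of 21 genes had a difference above 0 (median 0.055). Of these 21, 4 had an unadjusted p under 0.05, or 19% against 9.73% of all genes. Without WT 3 the median was 0.030 with 12 of 21 above 0. WT 2, at 0.041 against the WT mean, lay among the KO mice (0.027 to 0.047). Pde8b, a phosphodiesterase, read 672.0, 584.1 and 689.2 in KO and 533.9, 517.0 and 492.5 in WT, without overlap (difference 0.32, adjusted p = 0.21), while its other probe set differed by 0.028. Gnas, the stimulatory G-protein subunit, differed by 0.18 (adjusted p = 0.46), and by 0.026 in its other probe set. Named with their values known, the others of this list at an unadjusted p under 0.05 were Adcy9 (0.25) and Pde4d (-0.20).

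Among CREB relatives and other coactivators, 11 of 18 had a difference above 0 (median 0.050) and 1 had an unadjusted p under 0.05. That was Ncoa3, a steroid receptor coactivator, at -0.26 (adjusted p = 0.51) but 0.0034 in its other probe set. Atf4, a stress-response factor, was next at 0.14 (0.073 without KO 3), with 0.25 in its other probe set. Of the TFIID subunits and general factors, 7 of 17 had a difference above 0 (median -0.064, or 0.016 without WT 1). Tbp, the TATA-binding protein, read 227.3, 200.3 and 213.6 in KO and 140.4, 169.7 and 200.1 in WT, so the groups were separate by a margin of 200.3 to 200.1 (difference 0.31, adjusted p = 0.48; 0.20 without WT 1). Gtf2b, the factor TFIIB, differed by 0.15 (adjusted p = 0.71).

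Sp and Kruppel-like factors divided 9 to 6 by direction (median 0.017, or -0.019 without KO 2 and 0.00041 without WT 2). Klf9, a hormone-responsive factor of neurons, read 7174, 6467 and 7198 in KO and 6141, 5807 and 5309 in WT, without overlap (difference 0.27, SE 0.074, adjusted p = 0.20). It passed the threshold only after quantile normalization (adjusted p = 0.034; 0.034 to 0.54 over all alternatives). Its 5 other probe sets disagreed. The next brightest (1428288_at) differed by 0.0083 and another (1436952_at) by 0.12, both with overlapping groups, while the remaining 3 gave 0.29 to 0.42. Sp4, the neuronal Sp1 relative, differed by 0.32 (adjusted p = 0.56), and by 0.30 in its other probe set. The REST corepressors had 12 of 22 above 0 (median 0.034, with 0.012 without KO 1, 0.014 without WT 2 and 0.022 without WT 3), led by Ctdspl, a small phosphatase that works with REST, at 0.40 (adjusted p = 0.21). Rcor3, a CoREST protein, gave -0.29 (adjusted p = 0.55), and its other probe sets -0.39 to 0.082. The neuronal genes that carry REST sites divided evenly, 13 above and 13 below 0 (median -0.0093, with -0.052 and 6 of 26 above 0 without KO 3). Cplx1, a complexin of transmitter release, gave -0.34 without overlap (limma adjusted p = 0.20, and -0.44 to -0.23 with 1 array left out). Its other probe sets gave -0.34 (adjusted p = 0.12) and -0.28, also with all KO mice below all WT mice. Bsn, the presynaptic scaffold bassoon, gave 0.24 (adjusted p = 0.48, with 0.15 without WT 3) and 0.14 in its other probe set.

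Huntingtin partners and modifiers had 21 of 35 genes above 0 (median 0.018, with 0.031 without KO 2 and 0.030 without WT 3), and 1 had an unadjusted p under 0.05, or 2.86%. Dlg4, the postsynaptic scaffold PSD-95, read 648.8, 532.1 and 625.1 in KO and 532.3, 531.9 and 451.2 in WT. KO 2 lay between WT 1 and WT 2 (difference 0.24, adjusted p = 0.46), and the other Dlg4 probe sets differed by -0.029 and 0.062. Ppif, the mitochondrial cyclophilin of the permeability pore, gave -0.24 (adjusted p = 0.57) and -0.23 in its other probe set.

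**Figure D3:**
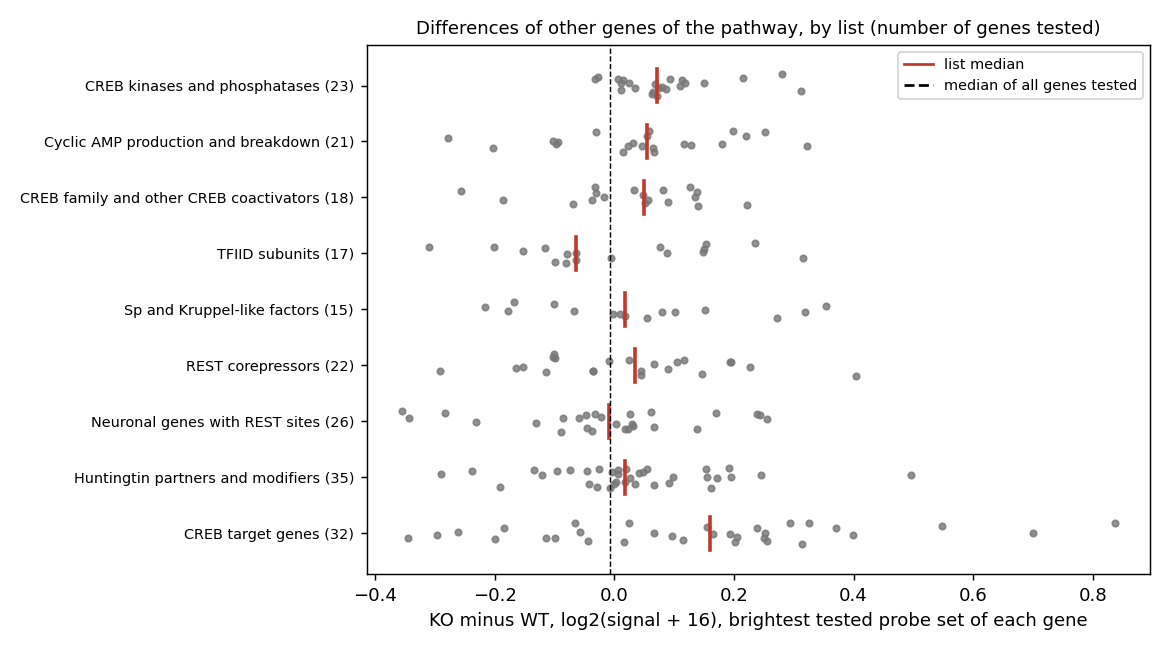
KO minus WT on the log2(signal + 16) scale for each tested gene of 9 pathway lists (grey points, brightest probe set of each gene), with the list median (red) and the median of all genes tested (dashed, -0.0069). List medians run from -0.064 for TFIID subunits to 0.16 for CREB target genes.

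Among the lists, the CREB target genes had the highest median. Of 32 tested, 22 had a difference above 0 (median 0.16, with 0.096 without WT 3 and 0.12 without KO 3), and 8 had an unadjusted p under 0.05, 7 of them higher in KO. That is 25% of the list against 9.73% of all genes. The list was chosen with earlier results of these data known, so this is not an independent comparison. Taken mouse by mouse against the WT mean, the list median was 0.077, 0.045 and 0.23 for the KO animals and -0.00034, 0.016 and -0.044 for the WT animals, so KO 3 was the highest. By brightest probe set limma called 0 of the 32.

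Dio2, the deiodinase that activates thyroid hormone, read 418.2, 512.4 and 473.0 in KO and 359.7, 285.1 and 215.2 in WT. Every KO mouse was above every WT mouse (difference 0.70, SE 0.15, adjusted p = 0.084). It passed the threshold only without WT 1 (0.87, adjusted p = 0.020; 0.020 to 0.35 over the alternatives). A dimmer Dio2 probe set (1426081_a_at), chosen after its values were seen, was the only one called among 443 tested probe sets of all list genes. It rose from 115 ± 21 in WT to 205 ± 12 in KO (SD, n = 3; difference 0.77, SE 0.14, adjusted p = 0.034). That call was lost with no filter (0.11), without the intensity trend (0.21), with the replicate block (0.051) and without any 1 array except WT 1 (0.087 to 0.17). The dimmest Dio2 probe set tested (1418938_at) differed by 0.29 without overlap (interval -0.091 to 0.67, limma adjusted p = 0.68). Crh, corticotropin-releasing hormone, read 122.8, 132.5 and 155.6 in KO and 55.4, 57.2 and 102.7 in WT (difference 0.84, SE 0.20, adjusted p = 0.12). Without WT 3, the highest of the WT mice, Crh passed the threshold (1.08, adjusted p = 0.021; 0.021 to 0.32 over the alternatives).

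Some further targets were named after their values were seen. In the list, 9 genes (28.1%) had all KO mice above all WT mice and 1 had them below, where 6.64% of all genes tested had KO above. Counted in both directions the shares were 31.2% and 15.1%. With a list chosen after earlier results were known, these shares are also a description only. Beside Dio2 and Crh, the 9 were Egr3, Egr2, Dusp1, Vgf, Nr4a3, Fosb and Inhba, with differences from 0.25 to 0.55. The clock gene Per1 (-0.30) was the one below. The classic immediate early CREB target Fos gave -0.10 and Junb -0.045, Nr4a1 gave 0.11 and the activity marker Arc -0.26, all with overlapping groups. The striatal neuropeptide genes Penk and Pdyn gave 0.097 and -0.058. The summed signal of 7 choroid plexus markers also separated the groups, at 2954 to 3991 in KO and 1538 to 2511 in WT, of which Kl, Folr1, Aqp1 and Otx2 lay below the filter. Ttr alone made up 82.2% to 91.7% of each sum, so the sum largely restates the Ttr values. The other 2 markers tested, Clic6 (difference 0.18) and Kcnj13 (0.23), had overlapping groups. Below the filter, Aqp1 read 18.0, 22.9 and 17.3 in KO and 12.8, 3.5 and 4.5 in WT, without overlap. Kl, Folr1 and Otx2 had overlapping groups. The part of these markers in the target values was not tested.

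**Figure D4:**
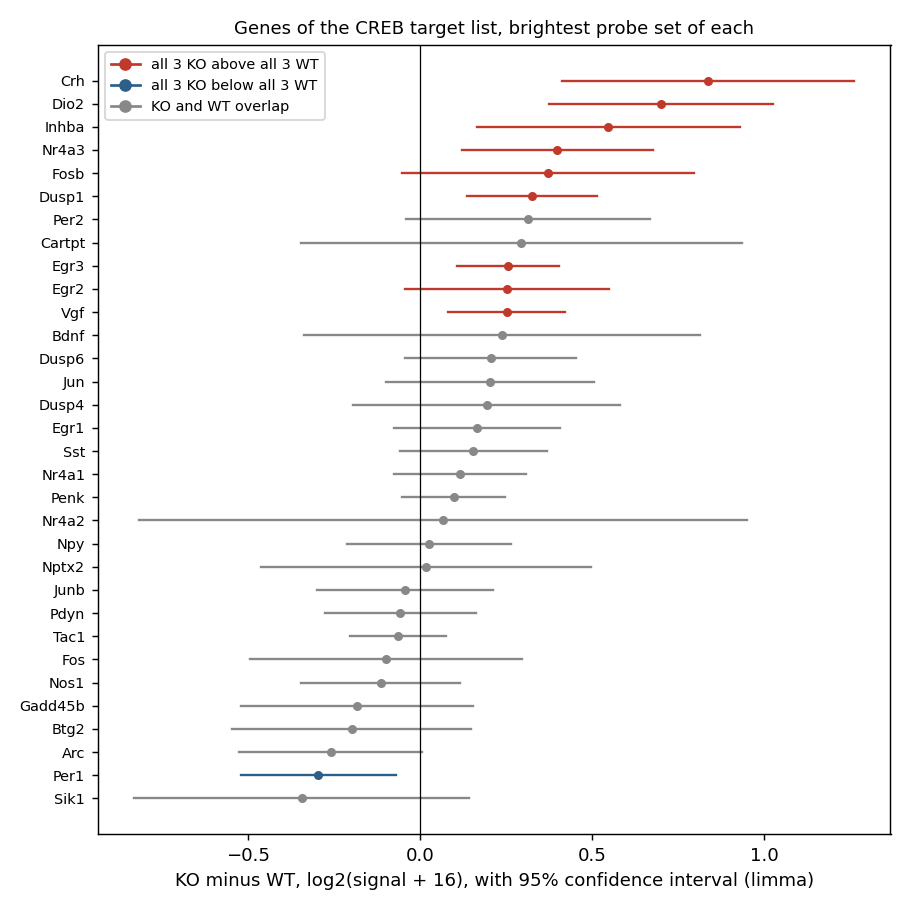
KO minus WT on the log2(signal + 16) scale with 95% confidence intervals from limma for 32 CREB target genes, by brightest probe set; red, all KO mice above all WT mice; blue, all below; grey, overlapping. The differences run from -0.35 for Sik1 to 0.84 for Crh.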

How the data were processed

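RNA of 6 mouse striata was measured on Affymetrix arrays, 1 per mouse. The authors deposited intensity values on a linear scale from MAS5, per the submitters' processing notes, already scaled (trimmed means of 149.6 to 150.0); the sources used here give no version or scaling target. Scaling removes differences in total RNA, and 3 arrays per group limit the precision. Detection calls were not used here.

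After leaving out 64 control probe sets, signals were transformed to log2(signal + 16), which understates changes of dim probe sets, and the dimmest 40% of probe sets, by mean log2 value, were removed. KO and WT were compared with limma 3.58.1 in R 4.3.3 (lmFit, eBayes with intensity trend), with Benjamini-Hochberg adjustment over 27022 probe sets. The procedure was tested on simulated data. Members, their names and chromosomes came from the platform annotation and the GRCm38.p6 gene table. A gene's value is that of its brightest tested probe set.

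The members and lists were chosen with earlier results of these data known. Genes named are all members, Ppargc1a, the called genes of each list or, without any, the 2 with the smallest p, and 3 genes each with profiles most like Htt and Creb1; any other gene was picked with its values known, as stated beside it. Alternatives covered scaling, offset, filter, variance model, replicate block, mean of probe sets and each array left out.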

Additional observations from a re-analysis of the deposited data

How the results depend on the processing

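No member was called under any of the 15 alternatives (lowest adjusted p = 0.20), by brightest probe set, or when probe sets of a gene were averaged, and neither was any list gene when averaged. The 127 calls over all probe sets became 52 with no filter and 25 without the intensity trend, and 65 to 102 without 1 array (65 without KO 1, 73 without KO 2, 70 without WT 2). Of 26 member probe sets, 15 kept their direction throughout and 11 turned at least once, the 11 with reported differences from -0.18 (Rest 1425565_at) to 0.16 (Hap1). Centring arrays on the median turned Creb1 1428755_at to 0.0022 and Crem 1449037_at to 0.018, and it moved the median of all probe sets from -0.0045 to 0.040. Averaging gave 0.17 for Crem and 0.016 for Rest. Without 1 array, values ran from -0.032 to 0.19 (Htt 1456667_at), -0.27 to 0.12 (Htt 1446337_at), -0.021 to 0.37 (Hap1), -0.21 to 0.013 (Hip1 1432230_at), -0.076 to 0.021 (Creb1 1428755_at), -0.083 to 0.023 (Crem 1449037_at), -0.046 to 0.10 (Crebbp 1434633_at), -0.079 to 0.25 (Ep300), -0.18 to 0.10 (Taf4 1452438_s_at), -0.049 to 0.14 (Taf4 1427460_at) and -0.39 to 0.013 (Rest 1425565_at). The cause was not tested. The replicate block gave 100 calls and 0 members. Same-numbered mice correlated at -0.0091, -0.035 and 0.017 in their deviations from the group means. The highest value with another number was 0.049, 0.025 and -0.0013. All are near 0, so they cannot show whether the numbers pair the samples. Probe sets below the filter allow no statement on Rest, Crem or Creb1 isoforms that they alone may read.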
